A study of Arabidopsis thaliana with 8 samples.

Results

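Dehydrins are late embryogenesis abundant (LEA) proteins of plants, and the 7 dehydrin genes described here are RAB18, COR47, ERD10, ERD14, LTI30, XERO1 and HIRD11 of Arabidopsis thaliana. They were chosen by name and make up 7 of the 34759 loci in the deposited table of transcript levels. Each has a locus of its own, and the authors' status flag was usable for all 7 in all 8 libraries. Transcripts were measured by RNA sequencing in the Col-0 background, in clf-28 plants and in wild-type plants (wt). The clf-28 allele disrupts CURLY LEAF (CLF), a Polycomb methyltransferase of histone H3 lysine 27. Each genotype gave 1 library of roots, leaves, flowers and siliques, 8 libraries in all, and the libraries called leaves hold everything above the root. Seedlings of 2 weeks on MS plates gave the roots and leaves, while soil-grown plants of 5 weeks gave the flowers and siliques. Days were long and the temperature was 22 °C throughout. Organ age and growth medium thus changed together, and their parts in a difference between seedling and reproductive organs cannot be told apart.

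Dehydrins are hydrophilic proteins with little fixed structure, named for their accumulation in tissue that loses water. A lysine-rich segment, the K-segment, binds membranes, and dehydrins protect membranes and enzymes in cold, drought and the drying of seeds. Their genes are among the best known targets of the hormone abscisic acid (ABA), which acts through bZIP factors on ABRE promoter elements, and of the CBF and DREB2 factors, which act on DRE/CRT elements. Polycomb marks such as methylation of H3 lysine 27 keep many stress and developmental genes silent, but no histone mark was measured in these libraries.

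Levels are given as deposited, in FPKM, fragments scaled to transcript length and library size, so that levels of different genes can be set side by side. With 1 library per group no value has a replicate error, and read depth is unknown. Ratios are of clf-28 to wt on the scale log2(FPKM + 1), where 1 stands for a 2-fold difference, and within an organ they have no test. The 4 organs are the only replication of the genotype. The libraries summed to 656178 to 715547 FPKM, with 17009 to 19525 genes at 1 FPKM or more. CLF itself was at 7.84 FPKM in clf-28 roots and 17.2 in wt roots, at 5.50 and 6.57 in clf-28 and wt leaves, at 14.7 and 9.99 in clf-28 and wt flowers, and at 15.1 and 6.53 in clf-28 and wt siliques. Its level over the whole locus therefore did not separate the genotypes, and the authors' intervals overlapped in each organ. Pollen and tapetum markers summed to 722 and 945 FPKM in clf-28 and wt flowers and to at most 25.3 FPKM in any other organ, and root markers (without PYK10, flagged for too many reads) to 190 and 404 FPKM in clf-28 and wt roots. The root markers were not confined to roots, as PYK10 was at 158 and 208 FPKM in clf-28 and wt leaves. In flowers the 3 root markers summed to 16.0 FPKM in clf-28 and 17.0 FPKM in wt.

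Taken as a sum over the 7 genes, dehydrin transcripts reached 6693 FPKM in clf-28 roots and 3511 FPKM in wt roots. In leaves the sum was 3920 FPKM in clf-28 and 1244 FPKM in wt. In flowers it was 1626 FPKM in clf-28 and 1217 FPKM in wt, and in siliques 1347 FPKM in clf-28 and 1655 FPKM in wt. The sum was thus higher in clf-28 in roots, leaves and flowers and lower in siliques, with the widest ratio in leaves. It amounted to 0.974% of the FPKM listed in the clf-28 root library and 0.524% in the wt root library. In the leaf libraries it was 0.588% in clf-28 and 0.190% in wt. Some genes without usable status are listed at 0 and add nothing to these totals, such as PYK10 in roots and RBCS1A in leaves.

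The make-up of the sum also differed. HIRD11, a small histidine-rich dehydrin that binds metal ions, gave 29.6% of it in clf-28 roots and 56.5% in wt roots. In leaves HIRD11 gave 29.6% in clf-28 and 66.7% in wt. COR47 and ERD10 gave larger shares, with 25.4% and 21.2% of the sum in clf-28 leaves, against 11.6% and 4.45% in wt leaves. In flowers and siliques the HIRD11 shares lay closer together, at 54.4% in clf-28 and 43.1% in wt flowers, and 44.1% in clf-28 and 47.6% in wt siliques. Smaller shares still differed there, RAB18 giving 7.19% in clf-28 and 1.06% in wt siliques, and XERO1 1.24% and 0.0759%.

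**Figure D1:**
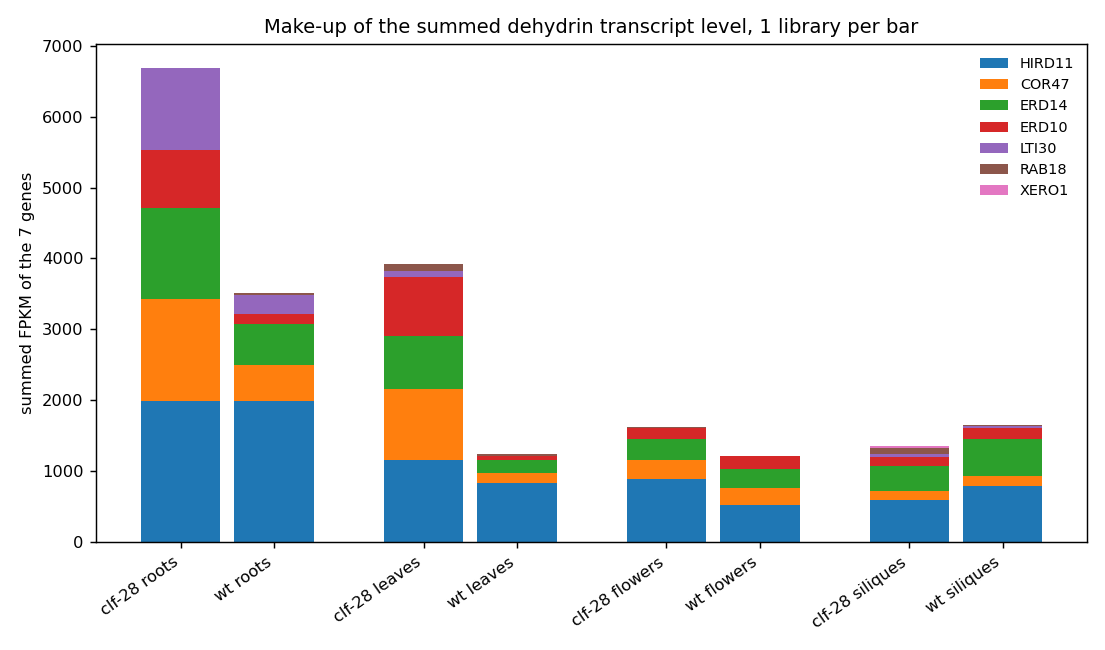
Summed FPKM of the 7 dehydrin genes (vertical axis) in each of the 8 libraries (bars, clf-28 left of wt in each organ), split by gene in colour. The clf-28 root bar reaches 6693 FPKM against 3511 in wt, and the clf-28 leaf bar 3920 against 1244, while the HIRD11 block is almost the same height in both root bars.

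The acidic dehydrins COR47, ERD10 and ERD14 are induced by cold and by dehydration and bind calcium when phosphorylated. COR47 (AT1G20440, chromosome 1, 7084409 to 7085772, TAIR10) was at 1450 FPKM in clf-28 roots and 506 FPKM in wt roots. In leaves it was at 998 FPKM in clf-28 and 144 FPKM in wt. In flowers it was at 276 FPKM in clf-28 and 235 FPKM in wt, and in siliques at 119 FPKM in clf-28 and 147 FPKM in wt. The gene was thus high in both clf-28 seedling libraries and near its wt level in the reproductive organs. In clf-28 roots it ranked 14th in FPKM among all genes with usable status, against 122nd in wt roots. The log2 ratios were 1.52 and 2.78 in roots and leaves, and 0.23 and -0.29 in flowers and siliques.

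ERD10 (AT1G20450, chromosome 1, 7088003 to 7089606) lies 2230 bases from COR47 on the same strand. It was at 808 FPKM in clf-28 roots and 140 FPKM in wt roots, and at 830 FPKM in clf-28 leaves and 55.4 FPKM in wt leaves. It was at 157 FPKM in clf-28 flowers, against 176 FPKM in wt flowers, and at 126 FPKM in clf-28 siliques, against 164 FPKM in wt siliques. Both clf-28 seedling libraries exceeded every other library for this gene, and in wt the leaf library had its lowest value. For roots and leaves the log2 ratios were 2.52 and 3.88, and for flowers and siliques -0.17 and -0.38. The leaf ratio ranked 25th of the 18509 genes measured in leaves, where measured means a usable status in both libraries and at least 1 FPKM in one or the other.

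ERD14 (AT1G76180, chromosome 1, 28586676 to 28587931) was at 1287 FPKM in clf-28 roots and 589 FPKM in wt roots, and at 749 FPKM in clf-28 leaves and 182 FPKM in wt leaves. In flowers it was at 285 FPKM in clf-28 and 269 FPKM in wt, and in siliques at 362 FPKM in clf-28 and 511 FPKM in wt. Like COR47 it had its highest values in the clf-28 seedling libraries, with smaller ratios to wt there. On the log2 scale the root and leaf ratios were 1.13 and 2.04, and those of flowers and siliques 0.08 and -0.50. ERD14 was the member with the narrowest intervals of the authors. Its lower bound was 0 in 3 of 8 libraries, whereas each of the other 6 genes had a lower bound of 0 in 8 of 8.

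LTI30 (AT3G50970, chromosome 3, 18940777 to 18941554), a dehydrin built of repeated K-segments that is induced by low temperature, was at 1161 FPKM in clf-28 roots and 270 FPKM in wt roots. In leaves it was at 93.7 FPKM in clf-28 and 4.68 FPKM in wt, a 20.0-fold ratio of the deposited values. In flowers it was at 3.82 FPKM in clf-28 and 0.684 FPKM in wt, and in siliques at 32.7 FPKM in clf-28 and 27.0 FPKM in wt. LTI30 was thus higher in clf-28 in 4 of 4 organs and had the widest range over organs of the 7 genes. Its root and leaf ratios were 2.1 and 4.06 on the log2 scale and its flower and silique ratios 1.52 and 0.27, and the leaf ratio ranked 21st of 18509.

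XERO1 (AT3G50980, chromosome 3, 18941925 to 18942865), a less studied dehydrin, is the neighbour of LTI30, its locus starting 370 bases after LTI30 ends, but its levels followed another pattern. It was at 16.7 FPKM in clf-28 siliques, against 1.26 FPKM in wt siliques, and at 3.17 FPKM in clf-28 roots and 2.2 FPKM in wt roots. In leaves it was at 0.443 FPKM in clf-28 and 0.134 FPKM in wt, and in flowers at 0.302 FPKM in clf-28 and 0.148 FPKM in wt, all under the 1 FPKM needed to count as measured. XERO1 was therefore abundant in no library and highest in clf-28 siliques. The log2 ratio was 2.97 in siliques, rank 405 of 20892 measured genes, and 0.38 in roots.

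RAB18 (AT5G66400, chromosome 5, 26518277 to 26519242), the classical ABA-induced dehydrin of guard cells, seeds and wilting tissue, was at 2.36 FPKM in clf-28 roots and 18.7 FPKM in wt roots. In leaves it was at 91.3 FPKM in clf-28 and 28.3 FPKM in wt. In flowers it was at 17.9 FPKM in clf-28 and 10.7 FPKM in wt, and in siliques at 96.8 FPKM in clf-28 and 17.6 FPKM in wt. RAB18 was therefore lower in clf-28 in roots and higher in the other 3 organs, while wt kept it within a 2.65-fold range over organs. Its log2 ratio was -2.55 in roots, and the leaf, flower and silique ratios were 1.65, 0.69 and 2.39. The root ratio ranked 19730th of 19742 measured genes, close to the bottom, in the same library where the 4 genes COR47, ERD10, ERD14 and LTI30 were at least 2-fold higher.

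HIRD11 (AT1G54410, chromosome 1, 20309775 to 20310839) was the most abundant dehydrin in each of the 8 libraries. It was at 1982 FPKM in clf-28 roots and 1985 FPKM in wt roots, and at 1158 FPKM in clf-28 leaves and 829 FPKM in wt leaves. In flowers it was at 885 FPKM in clf-28 and 525 FPKM in wt, and in siliques at 594 FPKM in clf-28 and 787 FPKM in wt. No organ reached a 2-fold difference. Its log2 ratio was -0.0022 in roots, and the leaf, flower and silique ratios were 0.48, 0.75 and -0.41.

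**Figure D2:**
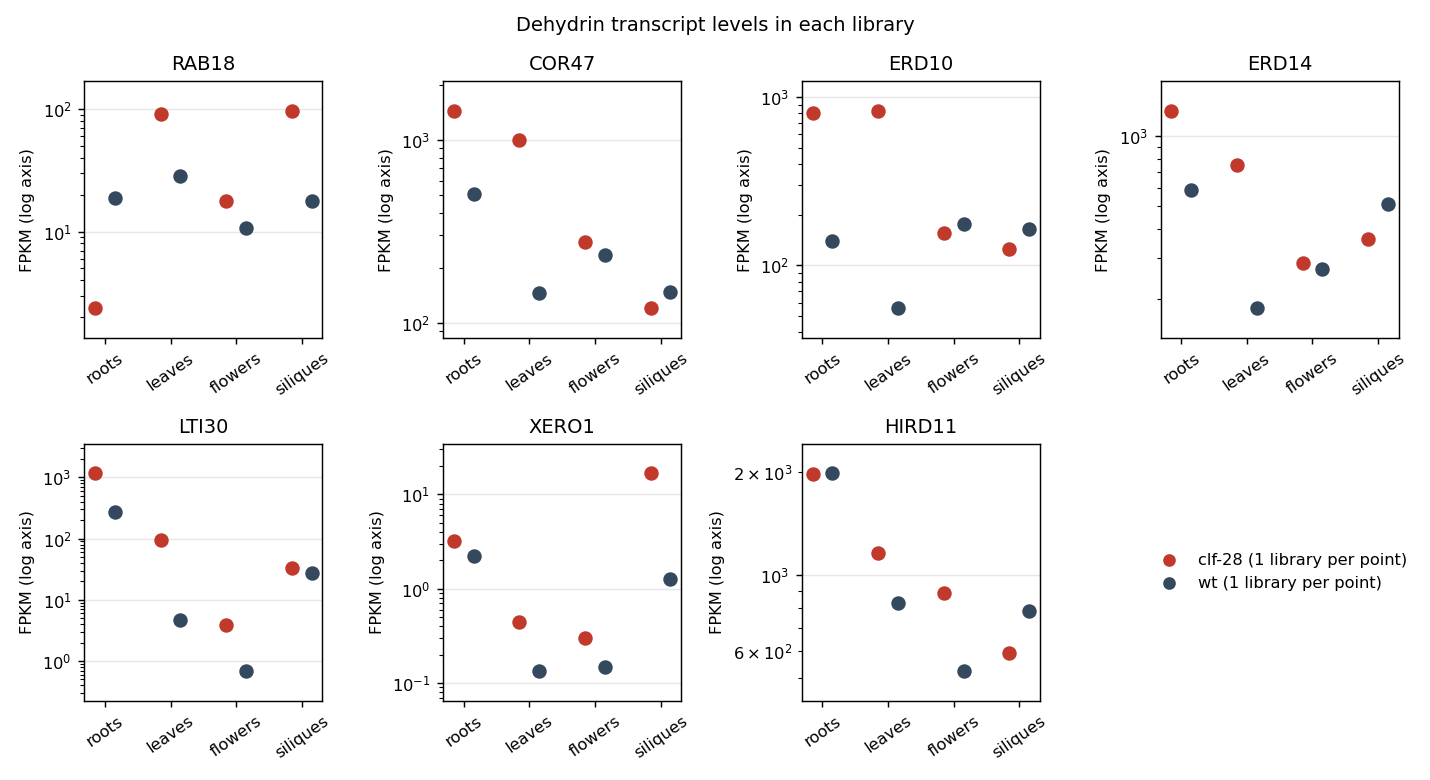
FPKM of each dehydrin gene on a log axis that differs between panels (vertical) in the 4 organs (horizontal), 1 library per point, clf-28 in red to the left of wt in dark blue. COR47, ERD10, ERD14 and LTI30 have their clf-28 points above wt in roots and leaves, RAB18 lies at 2.36 FPKM in clf-28 roots against 18.7 in wt, and XERO1 peaks at 16.7 FPKM in clf-28 siliques.

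Counted over the family, 4 of 7 measured genes were at least 2-fold higher in clf-28 roots and 1 was at least 2-fold lower, where 5.55% and 1.22% of all measured genes were. In leaves 5 of 6 measured genes were at least 2-fold higher (all but HIRD11), against 5.45% of all genes, and 0 were lower, against 1.43%. In flowers the count was 1 of 6, LTI30, against 1.51%, with 0 lower against 1.04%. In siliques it was 2 of 7, RAB18 and XERO1, against 11.4%, with 0 lower against 8%. The median log2 ratio of the measured dehydrins was 1.13 for roots, 2.41 for leaves, 0.46 for flowers and -0.29 for siliques, beside -0.09, -0.02, 0.01 and -0.01 over all measured genes. COR47, ERD10, ERD14 and LTI30 were at least 2-fold higher in both roots and leaves, as were 1.42% of the 24078 genes tested over organs. LTI30 and XERO1 were above wt in 4 of 4 organs, as were 10.3% of those genes. The authors' intervals overlapped between clf-28 and wt for 7 of 7 dehydrins in each organ. Over all measured genes, intervals lay apart for 0.0355% in the root pair, 0.054% in the leaf pair, 0.0191% in the flower pair and 0.201% in the silique pair.

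**Figure D3:**
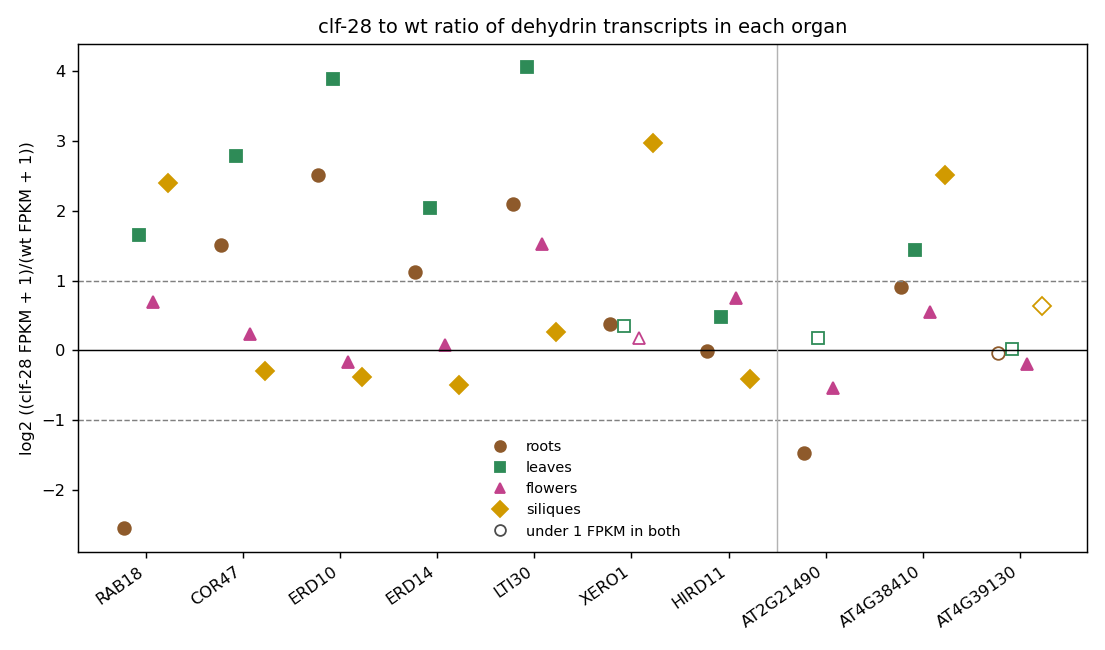
Log2 ratio of clf-28 to wt with a pseudocount of 1 FPKM (vertical axis) for each dehydrin gene (horizontal axis), 1 symbol per organ; dashed lines mark 2-fold and open symbols mark genes under 1 FPKM in both libraries. The root and leaf symbols of COR47, ERD10, ERD14 and LTI30 lie above the upper line, RAB18 in roots lies at -2.55, and AT2G21490 in siliques is not drawn because it is listed at 0 in wt.

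Markers of other cell types and states differed along with several of these ratios. Seed markers had a summed level of 10178 FPKM in clf-28 siliques and 2.34 FPKM in wt siliques over SESA1 and OLEO1, the 2 of 6 listed seed genes with usable status in both libraries. The other 4, CRA1, CRC, SESA2 and SESA3, carry the flag for too many reads in clf-28 siliques and are listed at 0 there. RAB18 and XERO1 were higher in the same library. In roots the 6 seed markers summed to 0.118 FPKM in clf-28 and 29.2 FPKM in wt, and RAB18 was lower there too. At least 2-fold lower in clf-28 roots were 4 of 4 measured seed markers, against 1.22% of all measured genes. Genes that respond within minutes to handling (ZAT10, ZAT12, WRKY40, WRKY33 and TCH4) summed to 655 FPKM in clf-28 roots and 192 FPKM in wt roots, to 374 FPKM in clf-28 leaves and 244 FPKM in wt leaves, to 36.6 FPKM in clf-28 flowers and 59.2 FPKM in wt flowers, and to 261 FPKM in clf-28 siliques and 24.2 FPKM in wt siliques. At least 2-fold higher in clf-28 were 4 of 5 in roots, 3 of 5 in leaves, 0 of 5 in flowers and 5 of 5 in siliques. The shares of all measured genes were 5.55%, 5.45%, 1.51% and 11.4%. Green tissue markers summed to 82.1 FPKM in clf-28 roots and 210 FPKM in wt roots. In siliques LHCB2.1, the only one of the 3 with usable status in both libraries, was at 548 FPKM in clf-28 and 1753 FPKM in wt, and the dehydrin sum was also lower there in clf-28. In roots, by contrast, the dehydrin sum was higher in clf-28 while the green tissue markers were lower. LHCB2.1 was at 3070 FPKM in clf-28 leaves and 3716 FPKM in wt leaves, again the only usable one. The 3 markers summed to 11254 FPKM in clf-28 flowers and 9038 FPKM in wt flowers. In bulk organs more cells of a type and more RNA per cell cannot be told apart. The part of seed content, handling and green tissue in the dehydrin ratios was not tested.

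The mean difference of clf-28 from wt over the 4 organs was tested with limma on log2(FPKM + 1). Organ was a block, with Benjamini-Hochberg adjustment over 24078 genes. Such a mean can join organs of opposite sign, as it did for RAB18, COR47, ERD10, ERD14 and HIRD11. LTI30 had the largest difference of the 7, 1.99 ± 0.62 (SE, 4 organ pairs), with an unadjusted p of 0.0241 and an adjusted p of 0.414 in limma. Among the dehydrins, 0 passed the adjusted threshold of 0.05 and 1 an unadjusted p under 0.05. Among all tested genes, 0 passed the adjusted threshold, and 5.49% were higher and 6.3% lower at the unadjusted one. ERD10 differed by 1.46 ± 0.82 and COR47 by 1.06 ± 0.55. The differences were 0.97 ± 0.53 for XERO1, 0.69 ± 0.46 for ERD14, 0.55 ± 0.85 for RAB18 (-0.069 without siliques) and 0.21 ± 0.29 for HIRD11. For these 6 genes the unadjusted p in limma lay between 0.112 and 0.549. LTI30 no longer had an unadjusted p under 0.05 without roots (1.95 ± 0.83, p 0.085 in limma), without flowers (2.14 ± 0.83, p 0.071) or without the organ block (1.99 ± 1.99, p 0.348), although its difference was about as large there. Without leaves it kept that p with a smaller difference, 1.29 ± 0.39. Leaving out leaves also lowered 3 other differences, to 0.66 ± 0.67 for ERD10, 0.48 ± 0.41 for COR47 and 0.24 ± 0.38 for ERD14. Without siliques XERO1 had 0.30 ± 0.07 (unadjusted p 0.0148, adjusted p 0.524 in limma). Its leaf and flower values were under 1 FPKM in both genotypes, and adding 1 FPKM narrows the spread of such ratios. The ratios of the deposited XERO1 values were 1.44 in roots, 3.31 in leaves and 2.04 in flowers. Without flowers HIRD11 had 0.02 ± 0.42. RAB18 had 1.58 ± 0.37 without roots (unadjusted p 0.0159, adjusted p 0.628 in limma).

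In the fit that nests the genotype in stage, COR47, ERD10, ERD14 and LTI30 had larger differences and smaller standard errors in the seedling organs than over the 4 organs, while RAB18, XERO1 and HIRD11 had larger standard errors. ERD10 was higher in clf-28 roots and leaves by 3.20 ± 0.37 on the log2 scale (SE, limma, unadjusted p 0.0012, adjusted p 0.377). LTI30 was higher by 3.08 ± 0.60, COR47 by 2.15 ± 0.38 and ERD14 by 1.58 ± 0.32, with unadjusted p of 0.00767, 0.00525 and 0.00836 in limma, each with an adjusted p of 0.48. These 4 of 7 genes, with unadjusted p under 0.05, stand beside 4.83% of all genes higher and 4.31% lower at that threshold. RAB18 had a difference of -0.45 ± 1.16, XERO1 of 0.36 ± 0.73 and HIRD11 of 0.24 ± 0.38, or -0.028 with quantile scaling. In the reproductive organs 0 dehydrins passed, at an adjusted or an unadjusted p under 0.05 in limma, while 3.13% of all genes were higher and 3.43% lower at the unadjusted one. XERO1 had the largest reproductive difference, 1.58 ± 0.73, then RAB18 with 1.54 ± 1.16 and LTI30 with 0.89 ± 0.60.

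The difference between the stages, reproductive minus seedling, was tested on its own. It was -3.47 ± 0.53 for ERD10 (unadjusted p 0.00315, adjusted p 0.832 in limma), -2.18 ± 0.53 for COR47 (unadjusted p 0.0162) and -1.79 ± 0.45 for ERD14 (unadjusted p 0.0176). These 3 of 7 genes stand beside 2.71% of all genes lower at an unadjusted p under 0.05. LTI30 had -2.19 ± 0.85 (unadjusted p 0.0644 in limma). It passed the unadjusted threshold with a pseudocount of 5 (-2.28, p 0.013 in limma) and with quantile scaling (-2.29, p 0.0263). The count was then 4 of 7, where 642 and 686 of all 24078 genes were lower. LTI30 did not pass with a pseudocount of 0.1 (-1.90 ± 1.08, p 0.153 in limma) or with no filter on low values (p 0.0952). Nor did it pass with median-of-ratios scaling (p 0.0533 in limma) or with no mean-variance trend (p 0.0678). HIRD11 had -0.07 ± 0.54 (0.47 with quantile scaling), XERO1 1.21 ± 1.03 and RAB18 1.99 ± 1.64. None of the 7 passed the adjusted threshold, and neither did any other gene tested. This fit has 2 residual degrees of freedom for each gene before limma pools the spread over genes.

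Levels across organs were tested over both genotypes with genotype in the model, so the spread is what organ and genotype leave unexplained. A gene whose clf-28 ratio varies between organs, such as ERD10, thus has a wide spread in this test. In the F test of limma over the 4 organs LTI30 passed (adjusted p 0.00579), 1 of 7 dehydrins, whereas 72.1% of all genes passed. HIRD11 stood at an adjusted p of 0.0519, XERO1 at 0.0779 and COR47 at 0.0966 in limma. Of the 42 comparisons of a dehydrin between 2 organs, 8 passed an adjusted p of 0.05, against 40.8% over all genes and pairs. LTI30 held 5 of them. Its level was lower in the other 3 organs than in roots, with log2 differences of -4.6 in leaves, -7.62 in flowers and -4.19 in siliques and adjusted p of 0.0138, 0.00308 and 0.0181 in limma. It was also lower in flowers than in leaves, by a log2 difference of -3.03, and higher in siliques than in flowers, by 3.43 (adjusted p 0.0463 and 0.0326 in limma).

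HIRD11 was lower than in roots in flowers, with a log2 difference of -1.54, and in siliques, with -1.53 (adjusted p 0.036 and 0.0363 in limma). COR47 was lower in siliques than in roots by a log2 difference of -2.69 (adjusted p 0.0461 in limma). For COR47 (roots, leaves, flowers, siliques) and HIRD11 (roots, leaves, then siliques and flowers) no neighbours in the order of levels passed. For LTI30 the order was roots, then siliques and leaves, which were 0.40 apart with an adjusted p of 0.762 in limma, then flowers. RAB18, ERD10, ERD14 and XERO1 had no pair of organs past the threshold. For XERO1 the difference of siliques minus flowers was 2.37 and of siliques minus leaves 2.3, with adjusted p of 0.0587 and 0.0631 in limma.

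The cluster of LTI30 and XERO1 shows how upstream sequence and pattern stood next to each other. The 250 bases before each deposited locus were read from the TAIR10.1 sequence and searched on both strands for the ABRE core (ACGTG or CACGT) and the DRE/CRT core (CCGAC or GTCGG). Over 27306 such windows, 24.7% held an ABRE core, 12.5% a DRE/CRT core and 4.02% both, and 1.47% held 2 or more DRE/CRT cores. The LTI30 window held 3 DRE/CRT cores and 1 ABRE core, and its first 116 bases and the stretch around the last pair are printed with the cores in capitals, since no other dehydrin window held as many matches. The ABRE core lies inside the RefSeq gene, which starts at 18940643, before the deposited locus.
LTI30, chr3:18940527-18940642, plus strand: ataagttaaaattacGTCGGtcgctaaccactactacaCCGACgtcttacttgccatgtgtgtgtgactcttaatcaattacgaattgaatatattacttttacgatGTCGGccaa
LTI30, chr3:18940631-18940659, plus strand: gatGTCGGccaaCACGTattgagtaaaat
The XERO1 window lies in the short gap between both genes and held 1 palindromic ABRE core, in capitals, and no DRE/CRT core.
XERO1, chr3:18941675-18941924, plus strand: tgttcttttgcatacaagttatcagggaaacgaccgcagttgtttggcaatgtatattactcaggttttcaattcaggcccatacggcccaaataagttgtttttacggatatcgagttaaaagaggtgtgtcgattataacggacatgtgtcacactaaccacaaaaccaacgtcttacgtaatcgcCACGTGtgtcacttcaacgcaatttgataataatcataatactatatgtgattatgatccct

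Among the other members, the RAB18 window held 2 ABRE cores and 1 DRE/CRT core, an arrangement shown because RAB18 was the dehydrin with opposite ratios in roots and in leaves. The stretches lie before the deposited locus. The first is inside the RefSeq gene, which begins further upstream, as is the COR47 stretch. The core in the other RAB18 stretch lies beyond the RefSeq gene of RAB18, in an annotated exon of another gene.
RAB18, chr5:26519353-26519382, minus strand: aaCACGTatggcgaaacaccacgCCGACat
RAB18, chr5:26519449-26519477, minus strand: gattgatatgaaCACGTacttggtatcga
The COR47 window held 1 DRE/CRT core and the ERD14 window 1 ABRE core, both in capitals. They are printed because both genes were at least 2-fold higher in clf-28 roots and leaves, COR47 more so, with different core matches.
COR47, chr1:7085916-7085944, minus strand: gatattcatctaCCGACttcaagaaataa
ERD14, chr1:28587932-28588181, minus strand: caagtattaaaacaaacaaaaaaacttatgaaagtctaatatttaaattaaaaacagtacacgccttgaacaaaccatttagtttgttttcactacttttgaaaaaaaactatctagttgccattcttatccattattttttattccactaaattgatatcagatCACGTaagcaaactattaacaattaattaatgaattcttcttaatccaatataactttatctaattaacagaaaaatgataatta
The ERD10 and HIRD11 windows held neither core. ERD10, with no match in these 250 bases, and LTI30, with 4, had the highest leaf ratios of the family. A match is a run of letters and not evidence of binding, and elements further upstream were not searched.

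**Figure D4:**
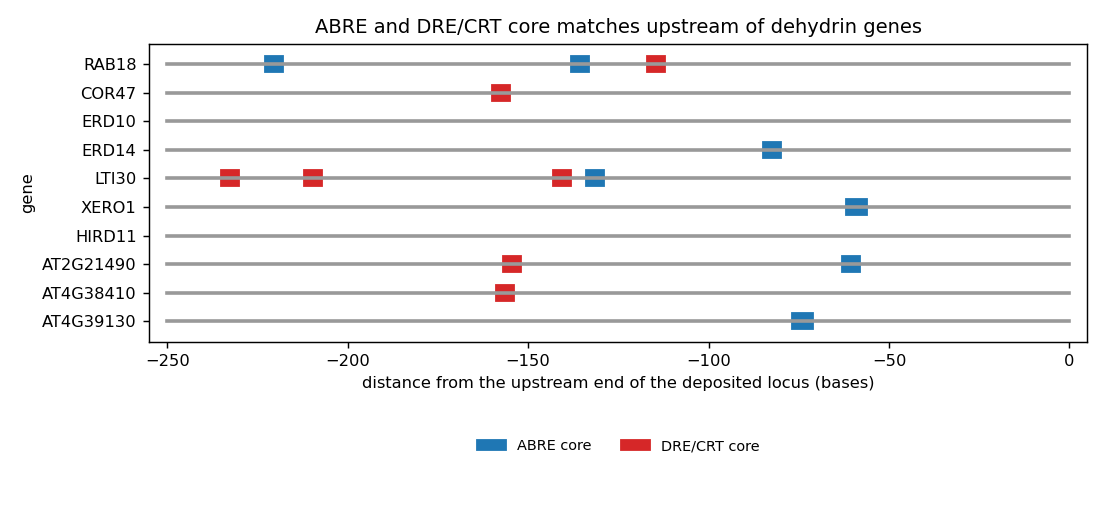
Positions of ABRE cores (blue) and DRE/CRT cores (red) in the 250 bases upstream of each deposited dehydrin locus (horizontal axis, bases from the locus end nearest the promoter), 1 row per gene. LTI30 has 3 DRE/CRT cores and 1 ABRE core, RAB18 has 2 ABRE cores and 1 DRE/CRT core, and ERD10 and HIRD11 have none.

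The 7 genes did not vary as a block over the 8 libraries. Pearson's r of log2(FPKM + 1) was 0.91 between ERD14 and LTI30, 0.87 between the neighbours COR47 and ERD10, 0.85 between ERD10 and ERD14 and 0.85 between LTI30 and HIRD11. Between the neighbours LTI30 and XERO1 it was 0.47. RAB18 had r between -0.40 and 0.21 with the other 6 genes. These values describe 8 libraries of 4 organs, in which organ and genotype both contribute, and the 2 libraries of an organ are not independent points. No pair of dehydrin transcripts shared a run of 50 bases, and no other annotated gene overlapped a member's locus, so the tandem neighbours were not near-identical copies.

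Outside the family, the genes with the most similar levels were found by the same measure. For COR47 they were SSP4b and RKP (r 0.99 each), for ERD14 HVA22E and the aquaporin gene RD28 (r 0.98 and 0.97), and for ERD10 the jasmonate synthesis gene OPR3 and AT1G20070 (r 0.96 each). LTI30 was most like AT5G25930 and AT5G18470 (r 0.99 and 0.98), XERO1 like AT1G02570 and DMP1 (r 0.99 each), and HIRD11 like AT2G21630 and ABF1 (r 0.99 and 0.98). RAB18 had the least similar partners, AT5G65250 and UGT75B1 (r 0.93 and 0.91). Each pair of genes was picked from 24078, so these r are descriptions.

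Of the 3 other Arabidopsis dehydrin genes, AT4G38410 was at 10.9 FPKM in clf-28 roots and 5.35 in wt roots, at 2.57 in clf-28 leaves and 0.311 in wt leaves, at 1.02 in clf-28 flowers and 0.386 in wt flowers, and at 8.34 in clf-28 siliques and 0.635 in wt siliques. It was higher in clf-28 in 4 of 4 organs, as were 10.3% of the 24078 genes tested. Its difference over organs was 1.35 ± 0.35 (unadjusted p 0.0119, adjusted p 0.414 in limma). Among all tested genes, 5.49% were higher at an unadjusted p under 0.05. The wt values of AT4G38410 in leaves, flowers and siliques were under 1 FPKM, so its ratios there depend on the 1 FPKM added. AT2G21490 was at 191 FPKM in clf-28 siliques and listed at 0 in wt siliques, the pair in which the seed markers also stood apart, and at 25.5 FPKM in clf-28 flowers, against 37.6 FPKM in wt flowers. In roots and leaves it did not exceed 2.05 FPKM. AT4G39130 was detected mainly in flowers, at 3.16 FPKM in clf-28 and 3.76 FPKM in wt.

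The regulators of the ABA and cold pathways comprise transcription factors, kinases, phosphatases and the hormone's synthesis. Of 20 measured genes of this list, 7 were at least 2-fold higher in roots and 12 in leaves, with 0 lower in either. Over all measured genes, 5.55% were higher and 1.22% lower in roots, and 5.45% and 1.43% in leaves. In flowers 3 of 17 were at least 2-fold higher and 0 lower, and in siliques 4 of 20 were higher and 1 lower. The shares of all measured genes were 1.51% and 1.04% in flowers, and 11.4% and 8% in siliques. HAI1, a phosphatase that restrains ABA signalling and is itself induced by ABA, was at 71.5 FPKM in clf-28 leaves and 0.933 FPKM in wt leaves, and at 39.6 FPKM in clf-28 roots and 3.07 FPKM in wt roots. DREB2A, a factor that binds DRE/CRT elements in drought and heat, was at 40.9 FPKM in clf-28 leaves and 4.70 FPKM in wt leaves. NCED3, the enzyme for the committed step of ABA synthesis, was at 43.6 FPKM in clf-28 leaves and 6.26 FPKM in wt leaves. In siliques ABI3, a regulator of seed maturation, was at 41.9 FPKM in clf-28 and 1.09 FPKM in wt.

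The genes that respond to these regulators encode protective proteins and enzymes for sugars and proline. Of 14 measured cold and ABA responsive genes, 13 were at least 2-fold higher in clf-28 leaves and 0 lower. Over all measured genes these shares were 5.45% and 1.43%. The median log2 ratio of the 14 genes was 3.13, against -0.02 for all genes. RD29A, whose promoter defined the DRE element, was at 394 FPKM in clf-28 leaves and 14.2 FPKM in wt leaves, and at 216 FPKM in clf-28 roots and 20.8 FPKM in wt roots. In roots 5 of 12 were at least 2-fold higher and 1 lower, and in flowers 1 of 11 was higher and 0 lower. Over all measured genes, 5.55% were higher and 1.22% lower in roots, and 1.51% and 1.04% in flowers. In siliques 3 of 14 were at least 2-fold higher and 6 lower, against 11.4% and 8% of all measured genes. There COR15A, a chloroplast protein that protects membranes in the cold, was at 7.17 FPKM in clf-28 and 77.4 FPKM in wt, while RD29B, an ABA-responsive relative of RD29A, was at 4.76 FPKM in clf-28 and 0.258 FPKM in wt. The siliques thus gave ratios of both signs within this list. The dehydrin ratios in siliques also had both signs, but 0 of 7 were at least 2-fold lower, the lowest being -0.50 for ERD14.

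Among LEA proteins other than dehydrins, 6 of 6 measured genes were at least 2-fold higher in clf-28 leaves and 8 of 9 in clf-28 siliques, with 0 lower in either organ. Over all measured genes, 5.45% were higher and 1.43% lower in leaves, and 11.4% and 8% in siliques. The silique count includes M10, at 7.36 FPKM in clf-28 and listed at 0 in wt. In roots 4 of 8 were at least 2-fold higher and 2 lower, and in flowers 1 of 5 was higher and 0 lower. The shares of all measured genes were 5.55% and 1.22% in roots, and 1.51% and 1.04% in flowers. LEA7 was at 182 FPKM in clf-28 leaves and 0.432 FPKM in wt leaves, and at 44.8 FPKM in clf-28 roots and 4.04 FPKM in wt roots. LEA14 was at 550 FPKM in clf-28 roots and 111 FPKM in wt roots. The 2 LEA genes lower in clf-28 roots were the seed genes M10, at 0.159 FPKM in clf-28 and 3.74 FPKM in wt, and EM6, at 0.801 FPKM in clf-28 and 4.99 FPKM in wt, the organ in which RAB18 was also lower. In limma over organs 7 of 22 regulators, 3 of 14 responsive genes and 3 of 9 LEA genes were higher at an unadjusted p under 0.05, with 0 lower in each list and 0 past the adjusted threshold. Among all tested genes, 5.49% were higher and 6.3% lower at that unadjusted threshold.

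**Figure D5:**
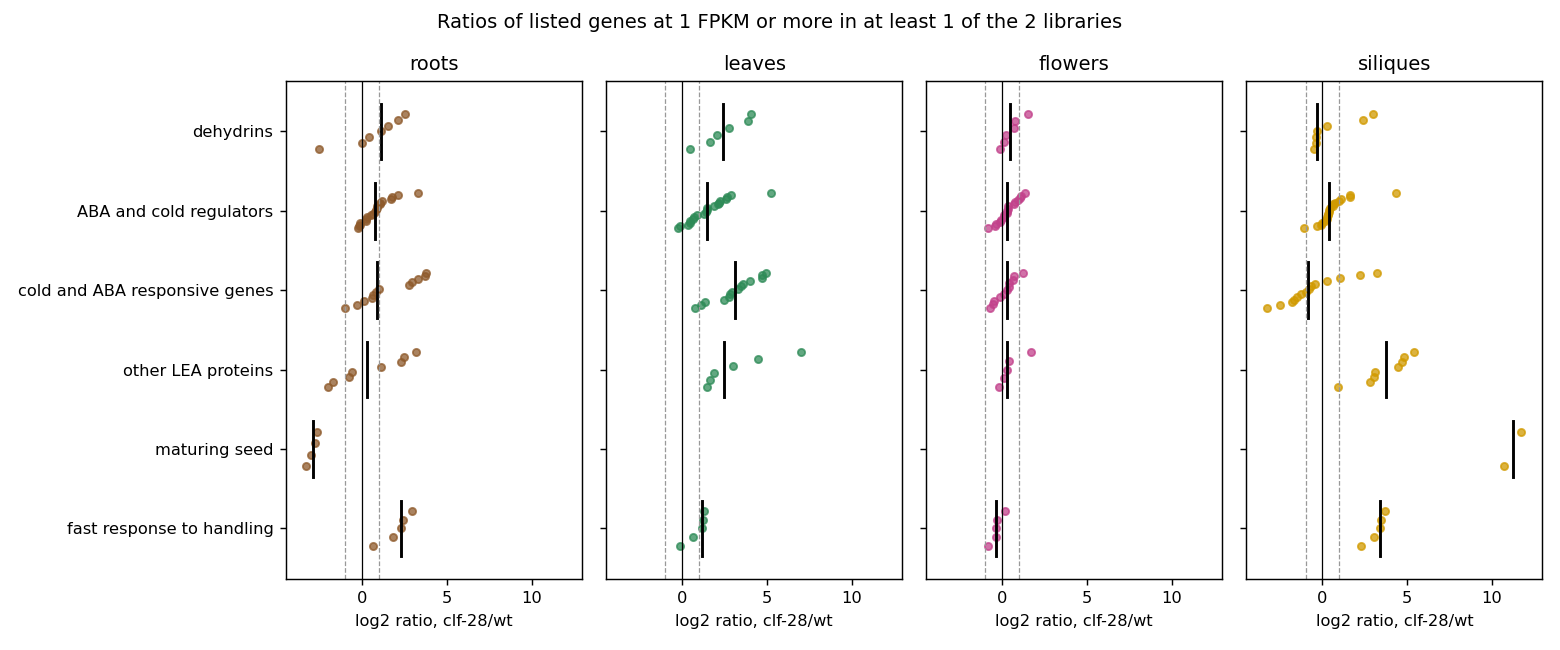
Log2 ratio of clf-28 to wt with a pseudocount of 1 FPKM (horizontal axis) of each measured gene in the dehydrin list, 3 lists of related genes and 2 marker lists (rows), 1 panel per organ; black bars are medians of the genes drawn, dashed lines mark 2-fold, and a gene listed at 0 in a library is left out. The leaf medians of dehydrins and of cold and ABA responsive genes lie at 2.41 and 3.13, and the seed markers lie below 0 in roots and above 10 in siliques.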

How the data were processed

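RNA-seq libraries of clf-28 and wt plants were analysed, 1 for each of 4 organs. TopHat, Cufflinks and TAIR10 are named in the submitters' processing notes; versions and the scaling between libraries are not given in the sources used here. Per the file headers, the authors' table gives an FPKM with a lower and an upper bound for each locus and library. The deposited status column (OK, LOWDATA, HIDATA or FAIL) is the authors' quantification flag. FPKM keeps no read counts, so depth is unknown and the authors' intervals are the only precision per value. Their upper bounds were 1.79 to 5.02 times the FPKM for the 7 dehydrins.

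The members, gene lists, tests and alternatives were chosen with earlier results of these data known. Genes named are the 7 members, the 3 other dehydrin genes, up to 3 list genes with the largest ratio each way per organ, and the 2 genes most correlated with each member. Within an organ, genes with usable status in both libraries, and at least 1 FPKM in one or the other, were described by ratios with a pseudocount of 1 and a 2-fold rule. limma 3.58.1 (R 4.3.3, mean-variance trend, two-sided, Benjamini-Hochberg) tested 24078 genes usable in 8 libraries that reached 1 FPKM in any of them. A run on simulated data, with the same spread for all genes and the same change in every organ, checked the estimated difference. It does not cover changes that vary between organs. The fit over organs has 3 residual degrees of freedom. The 1098 loci with several gene names were in no list. Upstream sequences came from the RefSeq TAIR10.1 genome; 98.0% of 32111 matched loci overlapped the RefSeq gene of the same name, and starts were identical for 29.2% to 34.5% per chromosome. Python 3.11.15, numpy 2.4.6, pandas 2.3.3 and matplotlib 3.10.9 were used for tables and plots.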

Additional observations from a re-analysis of the deposited data

Results flagged for a closer look

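RAB18 moved in opposite directions between organs. Its log2 ratio of clf-28 to wt was -2.55 in roots, against 1.65 in leaves and 2.39 in siliques, and this difference between organs was not tested because each organ has 1 library per genotype.

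ERD10 had positive ratios in both seedling organs (2.52 in roots and 3.88 in leaves) and negative ones in both reproductive organs (-0.17 in flowers and -0.38 in siliques). Neither reproductive ratio reached 2-fold. The difference between the stages was -3.47 on the log2 scale, with an unadjusted p of 0.00315 and an adjusted p of 0.832 in limma. ERD10 was flagged for these opposite signs, so this p comes from the values that picked the gene and is no separate evidence.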

How the results depend on the processing

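Of the counts and summaries recomputed under other settings, 170 stayed within 1.5 times the reported count and 14 did not. A count of 0 in both settings was scored as unchanged, and many of the 170 are of this kind. The tally is therefore no measure of stability. Values of single genes were compared by their side of the threshold and, where tested or past 2-fold, by sign, not by size: 336 kept these, 3 ratios crossed the 2-fold limit and 4 differences reversed. For the tested differences this left the sign alone, because none had an adjusted p under 0.05 in limma under any setting. Several differences over organs changed in size when 1 organ was left out, as given with the test. The number of dehydrins higher over organs at an unadjusted p under 0.05 (1 as reported) was 2 with a pseudocount of 0.1 and 0 with no organ block, and ran from 0 (without flowers) to 2 (without siliques) when 1 organ was left out. Dehydrins past the F test over organs (1 as reported) were 2 with a pseudocount of 0.1, with quantile scaling and without the mean-variance trend, where 73.8%, 64.0% and 71.4% of all genes passed. Pairs of organs past the threshold (8 as reported) were 5 with a pseudocount of 5 (37.6% over all genes) and 3 with no filter on low values (33.0%). With a 3-fold rule 2 dehydrins were higher in roots, against 2.4% of all genes. In flowers the count was 0 with a pseudocount of 5 (0.669% of all genes) or a 3-fold rule (0.468%), 2 with quantile scaling (1.55%) and 3 with a 1.5-fold rule (5.03%). Signs reversed for RAB18 over organs, whose difference ran from -0.069 without siliques to 1.58 without roots, and with quantile scaling for HIRD11 in seedling organs (-0.028), COR47 in reproductive organs (0.0056) and HIRD11 in the stage difference (0.47). The cause was not tested. Over all genes, unadjusted calls over organs, 1323 higher and 1516 lower as reported, were 597 and 630 without leaves, 962 and 1277 without siliques, 1067 and 762 without roots, 1084 and 1987 with quantile scaling and 147 and 13 with no organ block, and 1 gene passed the adjusted threshold with a pseudocount of 5. The labels give the groups no replicate numbers; the libraries were paired by organ, and the fit with no organ block is the alternative given here.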
